A study of Mus musculus with 12 samples.

Results

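The circadian clock genes were followed in the arcuate nucleus (ARC), a hypothalamic cell group next to the median eminence that controls feeding and reproduction, in 12 RNA sequencing libraries from female mice. The set held 10 genes chosen by their symbols, namely the activators Arntl and Clock, the inhibitors Per1, Per2, Per3, Cry1 and Cry2, the repressors Nr1d1 and Nr1d2, and the output gene Dbp. Of the 16640 genes in the deposited table these 10 were all present, and all 10 were among the 15801 genes kept after a filter on low values. All animals were 27 weeks old, carried the loxP-flanked Esr1 allele (Esr1fl/fl, the gene for oestrogen receptor alpha) and came from a colony of mixed CD-1;129P2 background. Controls, labelled Ctrl, received chow (n = 3) or a high-fat diet (HFD) for 17 weeks (n = 2). Mutants, labelled NkxCre, also carried a Cre recombinase driven by Nkx2-1 (Esr1Nkx2-1Cre) and received chow (n = 4) or the same HFD (n = 3). The driver acts in any cell with a history of Nkx2-1 expression, so that recombination is not limited to the ARC. The hour at which the tissue was taken is not given in the sources used here, and its part in the values below was not tested. The labels list the libraries as separate samples and name no animals, so p-values measure the spread between these libraries.

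In mammalian cells the clock is a transcriptional feedback loop. The proteins of Arntl (also called BMAL1) and Clock bind E-box sequences together and switch on the Per, Cry and Nr1d genes and Dbp, and the PER and CRY proteins then return to the nucleus and inhibit the pair that made them. NR1D1 and NR1D2 (REV-ERB alpha and beta) repress Arntl at elements that the related ROR receptors activate, and DBP acts on D-box sequences. Over a day the Per, Nr1d and Dbp transcripts are high at other hours than the Arntl transcript. Light sets the clock of the suprachiasmatic nucleus, whereas feeding time is a known cue for clocks elsewhere, the ARC among them.

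Regulatory letters were looked up in the RefSeq promoter windows, 250 bases before to 50 bases after each annotated start (GRCm38.p6). Windows of 9 of the 10 genes were searched, and that of Per2 was not analysed here. Both strands were searched for the E-box CACGTG, the E'-box CACGTT, the D-box TTATGTAA, the ROR/REV-ERB element TAGGTCA and the cAMP response element TGACGTCA. Through all but the last of these, clock genes are known to act on one another. The sequences below are shown because they hold the loop's own control letters in its own genes, with the motif in capitals, read 5′ to 3′ on the strand of the gene. AACGTG is the E'-box read on the other strand.
Per1 E-box, chr11:69098753-69098818, plus strand: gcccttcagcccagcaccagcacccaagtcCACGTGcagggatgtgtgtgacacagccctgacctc
Cry1 E-box, chr10:85185079-85185144, minus strand: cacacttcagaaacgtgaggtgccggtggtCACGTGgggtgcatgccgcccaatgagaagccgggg
Cry2 E'-box, chr2:92434200-92434265, minus strand: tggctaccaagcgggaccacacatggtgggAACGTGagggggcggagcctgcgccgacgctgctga
Nr1d1 E'-box, chr11:98775370-98775435, minus strand: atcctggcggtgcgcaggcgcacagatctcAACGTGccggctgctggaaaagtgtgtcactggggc
Per3 D-box, chr4:151044833-151044900, minus strand: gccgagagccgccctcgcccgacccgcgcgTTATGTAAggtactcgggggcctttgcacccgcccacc
Arntl ROR/REV-ERB element, chr7:113207511-113207560, plus strand: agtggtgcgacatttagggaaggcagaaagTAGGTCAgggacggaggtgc
The E-box was present in the windows of 2 of the 9 genes, Per1 and Cry1, against 8.09% of all 27025 genes with a window. The E'-box was present in 3 (Cry1, Cry2 and Nr1d1) against 5.44% of genes. Per3 held a D-box at 2 places, a motif found in 1.11% of genes, and Arntl held the ROR/REV-ERB element downstream of its start, a motif found in 2.97%. In Cry1 the E'-box stands upstream of the E-box and is visible in lower case (aacgtg) in the printed stretch. Per1 had 2 windows, and its E-box lay in a window at an annotated start inside the gene (chr11:69098699-69098998). The other Per1 window held no E-box. No cAMP response element lay in any window of the 9 genes, against 2.03% of all genes. A match describes these letters in this window and is no evidence that a factor was bound.

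Libraries resembled one another, with a median Spearman's rho across genes against the other libraries between 0.908 and 0.959. Mutant chow replicate 3 had the lowest of these values and the most genes listed at 0 (1768), and control chow replicate 2 had the highest column total (1254999, against 922172 to 1033520 in the others). Esr1 had a mean signal of 14.97 ± 6.72 (SD, n = 3) in control chow and 3.20 ± 2.01 (SD, n = 4) in mutant chow, but on HFD it had a mean of 18.8 ± 5.06 (SD, n = 2) in controls and still 13.1 ± 3.11 (SD, n = 3) in the group labelled mutant. The last group thus went against its genotype label, and it is called by its label throughout. The ARC neuron markers Agrp, Npy and Pomc were present in every library, and Agrp ran from 65.9 to 787.

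Levels are given as the deposited abundance signal, a value near the scale of TPM. Its scaling is not given in the sources used here, and the order of genes below takes it as normalised for length. Averaged over 12 libraries, Dbp was highest at 142, followed by Nr1d1 at 83.8, Nr1d2 at 57.1, Cry2 at 42.0, Per1 at 40.5, Per3 at 28.1, Clock at 15.4, Arntl at 13.4, Cry1 at 12.7 and Per2 at 11.3. The top of this order was the steadier part. Dbp exceeded Nr1d1, and Nr1d1 exceeded Nr1d2, in 12 of 12 libraries, although the ranges of both pairs overlapped. Cry2 exceeded Per1 in 6 of 12 libraries, Arntl exceeded Cry1 in 7, and Cry1 exceeded Per2 in 9, so these neighbours were not ordered beyond their spread. The ratio of the highest to the lowest library was 3.16 for Per2 and 2.81 for Per3 but 1.38 for Nr1d1, with the other 7 genes between 1.73 and 2.12.

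**Figure D1:**
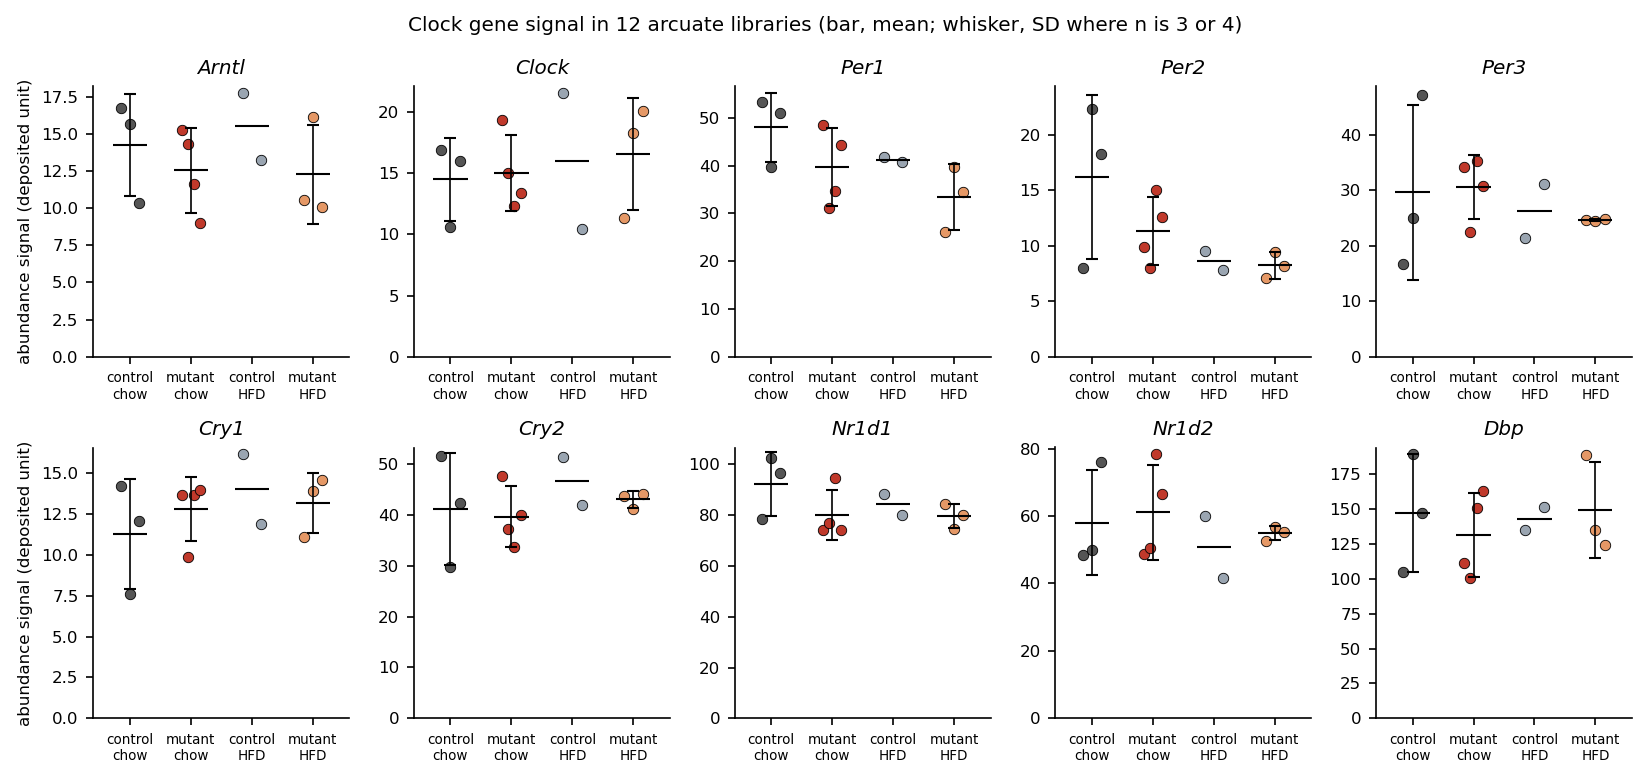
Abundance signal of the 10 clock genes (vertical axes from 0, deposited unit) in the 12 libraries, with 1 point per library, a bar at the group mean and a whisker of 1 SD where n is 3 or 4. Groups overlap in every panel and every pair compared except Per1 in mutant against control on HFD, and Per2 lies between 7.05 and 9.53 in the 5 HFD libraries against 7.95 to 22.3 on chow.

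The activators came first. Arntl (ENSMUSG00000055116, chr7:113207465-113314126, plus strand) encodes the bHLH-PAS protein without which the loop stops. In replicate order, it read 16.7, 15.7 and 10.4 in the control chow libraries, 15.3, 14.3, 11.6 and 8.97 in the mutant chow libraries, 17.8 and 13.2 in control HFD, and 10.5, 16.1 and 10.1 in the libraries labelled mutant HFD. Every group held libraries on either side of the overall mean of 13.4, and control HFD replicate 1 was highest. Clock (ENSMUSG00000029238, chr5:76209868-76304792, minus strand) encodes its partner. It was 16.9, 10.6 and 16.0 in control chow, 19.3, 14.99, 12.3 and 13.4 in mutant chow, 21.6 and 10.5 in control HFD, and 11.4, 18.2 and 20.1 in mutant HFD. The 2 control HFD libraries were the highest and the lowest of all 12, so that the spread inside this group was as wide as the spread over the study.

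The Per genes encode the period proteins, the limiting part of the inhibitory complex, and Per1 and Per2 are also induced quickly by light and by hormones in other tissues. Per1 (ENSMUSG00000020893, chr11:69095217-69109960, plus strand) was 53.3, 39.8 and 51.0 in control chow, 48.5, 31.1, 34.6 and 44.4 in mutant chow, 41.9 and 40.7 in control HFD, and 26.1, 39.7 and 34.6 in mutant HFD. On HFD the 3 libraries labelled mutant lay below both control libraries, whereas on chow the genotypes overlapped. Per2 (ENSMUSG00000055866, chr1:91415982-91459324, minus strand) was 7.95, 22.3 and 18.3 in control chow, 9.89, 7.95, 14.98 and 12.5 in mutant chow, 9.53 and 7.77 in control HFD, and 7.05, 9.44 and 8.19 in mutant HFD. On chow, 5 of 7 libraries exceeded every HFD library, and the other two, control chow replicate 1 and mutant chow replicate 2, lay inside the HFD range. Per2 spread 2.80-fold over the 7 chow libraries and 1.35-fold over the 5 HFD libraries. This was not particular to Per2, because among the members Clock alone spread more widely on HFD (2.06-fold, against 1.82-fold on chow). A ratio of highest to lowest also tends to grow with the number of libraries. Per3 (ENSMUSG00000028957, chr4:151003652-151044665, minus strand) was 16.8, 24.9 and 47.1 in control chow, 34.1, 22.4, 35.2 and 30.7 in mutant chow, 21.3 and 31.1 in control HFD, and 24.6, 24.4 and 24.8 in mutant HFD. The lowest and the highest Per3 library both belonged to control chow, while the 3 mutant HFD libraries were nearly equal (24.6 ± 0.204, SD, n = 3).

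The cryptochromes carry most of the repression in the inhibitory complex. Cry1 (ENSMUSG00000020038, chr10:85131700-85185064, minus strand) was 14.2, 7.61 and 12.1 in control chow, 13.7, 9.90, 13.7 and 14.01 in mutant chow, 16.2 and 11.9 in control HFD, and 11.1, 13.9 and 14.6 in mutant HFD. Control chow replicate 2, which had the highest Per2, had the lowest Cry1. Cry2 (ENSMUSG00000068742, chr2:92403646-92434043, minus strand) was 51.5, 29.7 and 42.2 in control chow, 47.7, 37.2, 33.6 and 39.9 in mutant chow, 51.4 and 42.0 in control HFD, and 43.7, 41.2 and 44.1 in mutant HFD. On chow, 4 of 7 Cry2 values lay below every HFD value and 1 lay above all of them, and the lowest was again control chow replicate 2.

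Nr1d1 and Nr1d2 close the second loop by repressing Arntl. Nr1d1 (ENSMUSG00000020889, chr11:98767932-98775333, minus strand) was 78.4, 102 and 96.5 in control chow, 74.2, 77.1, 94.7 and 74.1 in mutant chow, 88.4 and 80.2 in control HFD, and 84.4, 74.8 and 80.1 in mutant HFD. It was the steadiest of the 10. Its within-group SD was 0.15 on the log2(signal + 1) scale. This was the 4.96th percentile among 11829 genes with a mean signal of about 5 or more, whose median was 0.35. These genes were not matched to Nr1d1 for level, and its own mean was 83.8. Nr1d2 (ENSMUSG00000021775, chr14:18204054-18239127, minus strand) was 48.5, 49.8 and 75.9 in control chow, 48.8, 50.4, 78.5 and 66.6 in mutant chow, 59.95 and 41.6 in control HFD, and 52.7, 56.8 and 55.3 in mutant HFD. The 3 highest Nr1d2 values came from chow libraries of both genotypes. Per2 and Per3 were the most variable, with within-group SDs of 0.44 (69.0th percentile) and 0.42 (65.6th percentile).

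Dbp, a PAR bZIP transcription factor gene and one of the most strongly rhythmic transcripts in many tissues, is the usual output readout of the loop. Dbp (ENSMUSG00000059824, chr7:45705088-45710203, plus strand) was 105, 189.6 and 147 in control chow, 112, 100.4, 151 and 163 in mutant chow, 135 and 151 in control HFD, and 189, 135 and 124 in mutant HFD. High and low libraries occurred in both diets, and the lowest was mutant chow replicate 2. Exons of Dbp share 539 bases (18.0%) with Sphk2 on the opposite strand, and those of Nr1d1 share 263 bases (8.55%) with Thra. Use of strand in the quantification is not given in the sources used here, so reads from these stretches could belong to either gene.

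The first question was whether the diet moved the clock genes, and no member passed the test in either genotype or in both together. All differences below are fitted log2 differences of log2(signal + 1) (limma, two-sided, Benjamini-Hochberg adjustment over 15801 genes). Averaged over the genotypes, 0 of the 10 genes had an adjusted p-value under 0.05 and 0 had an unadjusted one under 0.05, against 0% and 5.29% of all genes tested. The members' median difference was -0.01 against -0.02 for all genes, with 5 of 10 above zero and 5 below.

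Per2 had the widest difference, at -0.56 ± 0.26 (SE), with a 95% interval of -1.13 to 0.008, an unadjusted p of 0.053 and an adjusted p of 0.886 by limma. The other differences averaged over genotypes were -0.22 for Per1, -0.18 for Per3, -0.15 for Nr1d2 and -0.06 for Nr1d1 on the lower side, and 0.18 for Cry1, 0.17 for Cry2, 0.10 for Clock, 0.09 for Dbp and 0.05 for Arntl on the higher side. Beyond Per2, only those of Per1 and Cry2 exceeded 1 SE, and these were -0.14 for Per1 without mutant HFD replicate 1 and 0.060 for Cry2 without control chow replicate 2. Cry1 was likewise 0.060 without control chow replicate 2, and Nr1d2 was -0.024 without control HFD replicate 2 and -0.28 without control HFD replicate 1. For 9 of the 10 genes the 95% interval lay within 2-fold in either direction, the exception being Per2, so that larger diet differences lie outside the intervals of these 9. The sign changed for Per3 without control chow replicate 3 (0.016), for Dbp without control chow replicate 1 (-0.016), for Clock without control HFD replicate 1 (-0.15) or control chow replicate 2 (-0.0013), and for Arntl without any of 4 libraries, control chow replicate 3, mutant chow replicate 4, control HFD replicate 1 or mutant HFD replicate 2 (-0.055 to -0.024).

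Single control chow libraries set the size of the Per2 difference. Without control chow replicate 1, whose Per2 was 7.95, the averaged difference was -0.77 (limma, unadjusted p = 0.00442, adjusted p = 0.412). Without control chow replicate 2, the highest at 22.3, it was -0.42. In control animals alone the mean was 8.65 ± 1.248 (SD, n = 2) on HFD and 16.2 ± 7.38 (SD, n = 3) on chow, a log2 difference of -0.73 ± 0.40 (SE, limma, adjusted p = 0.998), and it ran from -1.14 to -0.45 as single libraries were left out. In mutants the mean was 8.22 ± 1.20 (SD, n = 3) on HFD and 11.3 ± 3.07 (SD, n = 4) on chow, a difference of -0.39 ± 0.34 (SE, limma, adjusted p = 0.936), which was -0.26 without mutant chow replicate 3.

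Within mutants, 0 of 10 clock genes were called on HFD against chow, at adjusted or unadjusted p, against 0.019% and 5.37% of all genes. Beyond Per2, only Per1 differed by more than 1 SE (-0.24 ± 0.21). It was -0.074 without mutant HFD replicate 1 and -0.37 without mutant HFD replicate 2. Within controls, 0 of 10 were called, against 0% and 3.54%, and beyond Per2 only Cry1 differed by more than 1 SE (0.31 ± 0.31). It was 0.076 without control chow replicate 2 and 0.52 without control HFD replicate 2. The groups of the 10 members overlapped throughout in both diet comparisons, whereas 7.99% of all genes in mutants and 14.1% in controls showed no overlap. The interval stayed within 2-fold for 9 of 10 genes in each genotype, again with Per2 outside. Between the mutant groups Esr1 differed too, with a mean of 3.20 on chow and 13.1 on HFD. The difference averaged over genotypes includes these groups, and the part of Esr1 in either comparison was not tested.

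**Figure D2:**
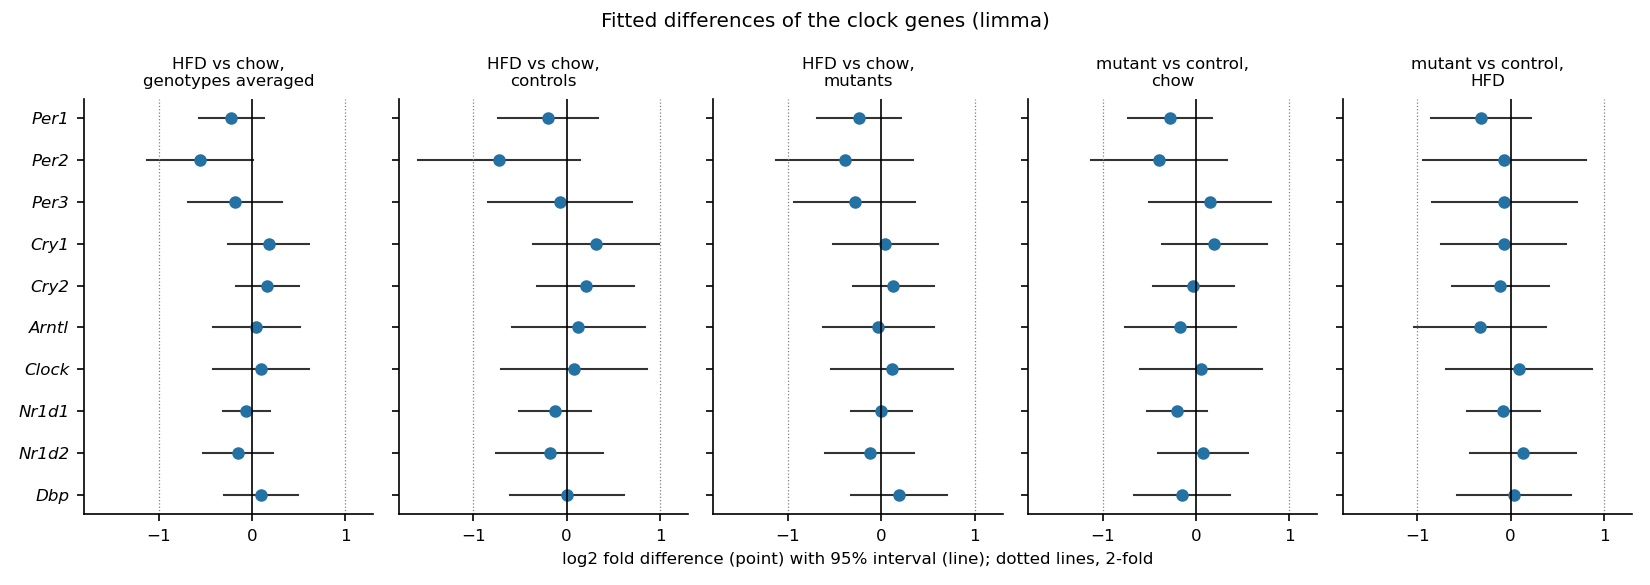
Fitted log2 differences (points, horizontal axis) of the 10 clock genes with 95% intervals (lines) in 5 comparisons from limma, with dotted lines at 2-fold. Every interval drawn includes 0, and Per2 reaches below the 2-fold line in every panel except mutant against control on HFD, where Arntl does (lower bound -1.04).

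The second question was whether the clock genes differed between the genotype labels, and no member was called on either diet. Lower Esr1 was seen in mutants on chow. On HFD Esr1 ran from 10.7 to 16.6 in the libraries labelled mutant, against 15.3 to 22.4 in controls. The HFD comparison therefore cannot answer a question about loss of Esr1. On chow, 0 of 10 had an adjusted or an unadjusted p under 0.05, against 0.019% and 4.34% of all genes. Differences larger than 1 SE were those of Per2 at -0.40 ± 0.34, Per1 at -0.28 ± 0.21 and Nr1d1 at -0.20 ± 0.15 (SE), all lower in mutants, and the smallest adjusted p among the 10 was 0.982 (limma). Without control chow replicate 1 the Per2 difference was -0.81 (limma, unadjusted p = 0.0192, adjusted p = 0.751), and without control chow replicate 2 it was -0.12. Per1 was -0.17 without mutant chow replicate 2, and Nr1d1 was -0.32 without control chow replicate 1 and -0.13 without control chow replicate 2. No member separated the genotypes on chow, against 4.51% of all genes without overlap.

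On HFD, 0 of 10 were called at adjusted or unadjusted p, against 0.00633% and 2.21% of all genes. Per1 in the libraries labelled mutant was 81.0% of the control mean, 33.5 ± 6.88 (SD, n = 3) against 41.3 ± 0.819 (SD, n = 2), and it was the 1 member of 10 without overlap. Of all genes, 15.7% showed no overlap in this comparison and 8.46% showed none with the mutant group lower, so 1 of 10 is near the background. The fitted difference of Per1 was -0.32 ± 0.25 (SE, limma, adjusted p = 1), and that of Arntl was -0.33 ± 0.33 (SE). Per1 was -0.15 without mutant HFD replicate 1, and Arntl was -0.13 without control HFD replicate 1 and -0.53 without control HFD replicate 2. The genotype by diet interaction called 0 of 10, against 0% and 3.44% of all genes, no interaction value exceeded its SE, and the interval lay within 2-fold for 5 of 10 genes. The 3 libraries labelled mutant HFD carry the limit on Esr1 given above.

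Other genes of the clock were counted by lists. Among 7 further loop genes (Npas2, the ROR receptors Rora and Rorb, the repressors Bhlhe40, Bhlhe41 and Ciart, and Timeless), 0 were called in any of the 6 comparisons (limma), and 1 had an unadjusted p under 0.05 in a comparison, HFD against chow in mutants, where 5.37% of all genes did. This was Npas2, a relative of Clock that can replace it as partner of Arntl. Npas2 was 10.9, 2.60 and 2.80 in control chow, 5.93, 20.1, 7.21 and 16.8 in mutant chow, 5.01 and 2.10 in control HFD, and 3.26, 2.07 and 6.05 in mutant HFD. Mutant chow replicates 2 and 4 were highest, and the groups overlapped. Its difference on HFD in mutants was -1.42 ± 0.54 (SE, limma, unadjusted p = 0.0208, adjusted p = 0.836). Npas2 thus spread 7.75-fold over the chow libraries while Clock spread 1.82-fold. The lowest chow value was 2.60 for Npas2 and 10.6 for Clock, and such a ratio is less steady at a low signal.

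Among 9 genes for modification and turnover of clock proteins (casein kinases, Gsk3b, the ubiquitin ligase genes Fbxl21, Btrc and Fbxw11, the deubiquitinase gene Usp2, and Sirt1), 0 were called in any comparison. Csnk1d, the kinase that phosphorylates PER proteins and sets their lifetime, had an unadjusted p under 0.05 in 3 comparisons. It was 99.8, 104 and 88.6 in control chow, 159.7, 117, 168 and 179 in mutant chow, 120.5 and 112 in control HFD, and 108, 154 and 87.9 in mutant HFD. On chow every mutant library lay above every control library, with a ratio of means of 1.60 and a difference of 0.66 ± 0.20 (SE, limma, unadjusted p = 0.00613, adjusted p = 0.982). Of the 9 genes only Csnk1d showed no overlap on chow, against 4.51% of all genes. In mutants the difference on HFD was -0.44 ± 0.20 (SE, limma, unadjusted p = 0.049, adjusted p = 0.916), and the interaction was -0.69 ± 0.31 (SE, limma, unadjusted p = 0.0455, adjusted p = 0.999). The difference in mutants ran from -0.65 without mutant HFD replicate 2 to -0.25 without mutant HFD replicate 3. On chow this 1 gene of 9 stood against a background of 4.34% of all genes with an unadjusted p under 0.05, in mutants on HFD against 5.37% and for the interaction against 3.44%. All 3 comparisons share the mutant chow libraries.

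Among 7 output genes (the PAR bZIP genes Tef and Hlf, their antagonist Nfil3, Wee1, Nampt, Klf9 and Klf10), 0 were called and 0 had an unadjusted p under 0.05 in any comparison (limma). Their fitted differences on HFD in mutants were below 0 for 7 of 7, between -0.39 and -0.01, while 53.1% of all genes lay below 0 in that comparison. In controls 4 of 7 were above 0, with a median of 0.03. In mutants Tef, like Dbp a PAR bZIP factor, was the only output gene without overlap between the diets. Its mean was 136 on HFD against 176 on chow, and 7.99% of all genes showed no overlap in that comparison.

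Over these 3 lists and the members, 2 of 33 genes showed no overlap between the diets in mutants (Csnk1e and Tef, both lower on HFD), against 7.99% of all genes. Csnk1e, a casein kinase gene closely related to Csnk1d, had a mean of 76.8 on HFD against 88.1 on chow. The groups of the 2 diets in controls did not overlap for 4 of 33 genes (Bhlhe40, Sirt1, Csnk1d and Usp2), against 14.1% of all genes. On HFD 4 of 33 genes were lower in the libraries labelled mutant without overlap (Per1, Csnk1e, Usp2 and Tef), against 8.46% of all genes, and Usp2 had a mean of 22.8 against 37.3.

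**Figure D3:**
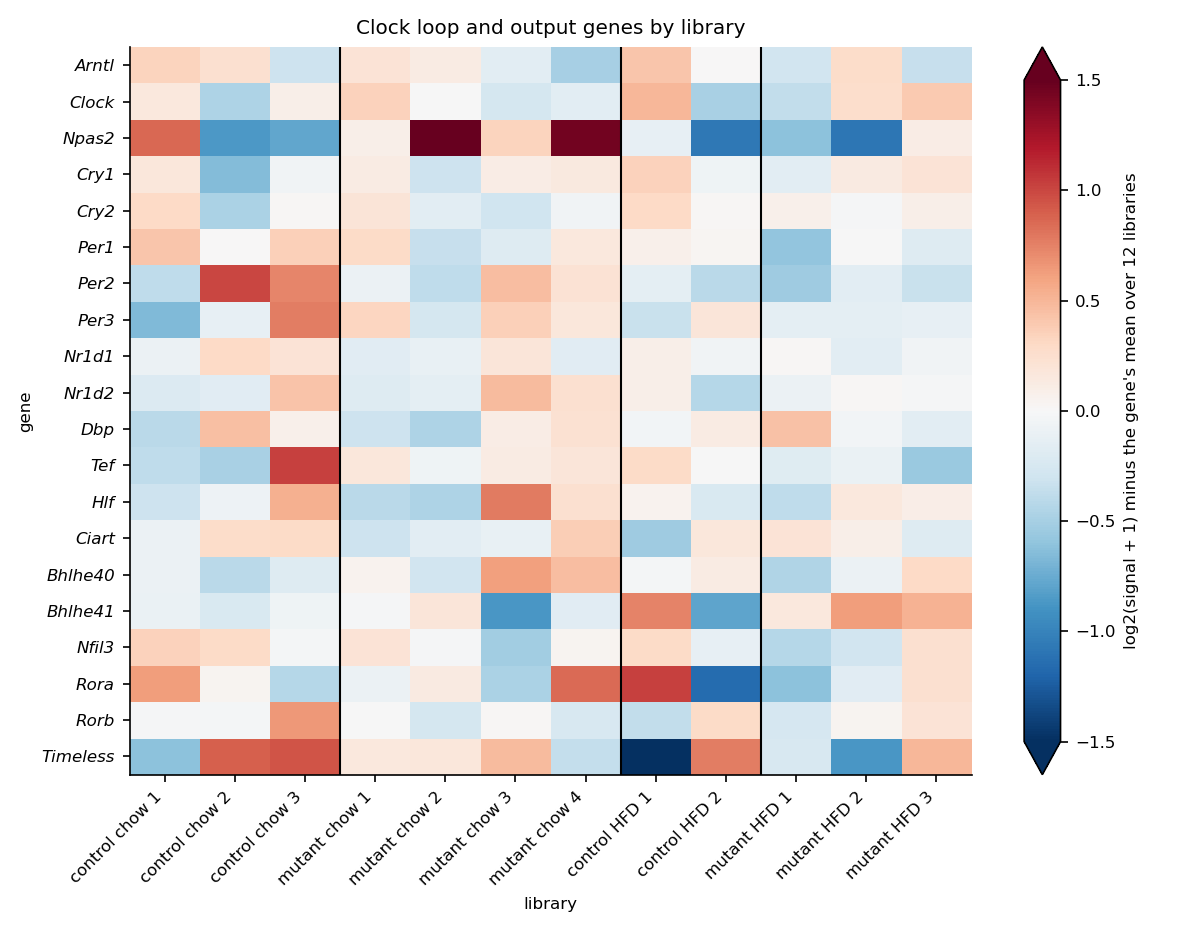
Deviation of log2(signal + 1) from each gene's mean over the 12 libraries, for genes of the loop and its output (rows) in each library (columns, groups divided by black lines); values past the ends of the scale take the end colour. Per2 is red in control chow replicates 2 and 3 and pale or blue in the 5 HFD libraries, and Npas2 is darkest in mutant chow replicates 2 and 4.

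The members were next set against one another within each library. A balance was formed as the mean log2 deviation of Per1, Per2, Per3, Nr1d1, Nr1d2 and Dbp, minus that of Arntl and Clock. The activators drive these genes, but also Cry1 and Cry2, which were left out. Cry1 and Cry2 ran with Clock (r = 0.67 and 0.66) and had r of -0.04 and 0.19 with Arntl. The balance was -0.47, 0.35 and 0.54 in control chow, -0.30, -0.34, 0.45 and 0.47 in mutant chow, -0.50 and 0.15 in control HFD, and 0.18, -0.35 and -0.17 in mutant HFD. Libraries on either side of 0 occurred in every group, so that the groups overlapped. No test was made of it, because the genes and the measure were chosen with results of these data known.

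Correlations between members are given as descriptions over 12 libraries, which share the authors' scaling and the group structure. Over 45 pairs the median Pearson's r was 0.13, and r exceeded 0.5 in 8 pairs and fell under -0.5 in 3. Clock and Dbp ran most strongly opposite (r = -0.67, rho = -0.70, and r = -0.73 after removal of group means). Cry1 and Clock moved together (r = 0.67, rho = 0.78), as did Cry1 and Cry2 (r = 0.72, rho = 0.64), although the latter r dropped to 0.33 without the 2 libraries farthest from the Cry1 median. The highest value, between Per2 and Nr1d1 (r = 0.73), had a rho of 0.34 and an r of 0.28 without the 2 farthest libraries, so it rested on those libraries. Arntl and Per3 ran opposite (r = -0.54, rho = -0.58), and r was -0.34 without the 2 farthest libraries.

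The genes most like Dbp over the 12 libraries, among 12142 genes with a mean signal of at least 5, were Pcbp2 (r = 0.872), Wdr83 (0.853), Actb (0.849), Ccdc115 (0.846) and Ift43 (0.845). Those most unlike it were Dock3 (r = -0.842), Dgkd (-0.835), Celf1 (-0.829), Rnf141 (-0.827) and Notch3 (-0.826). No gene of the clock lists appears among these 10. The clock gene nearest to Dbp was Ciart, a repressor of the activator pair, with r = 0.645, followed by Nr1d1 at 0.542, and the most opposite were Clock at -0.666 and Klf9 at -0.640. The genes most like Arntl were Jmjd4 (r = 0.882), Urgcp (0.876), Srpk2 (0.854), Setd4 (0.826) and Prdm11 (0.811), and the nearest clock gene was Klf10 at 0.611. With 12 points and this many genes, extremes of this size describe the libraries and carry no p-value.

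Markers of neighbouring tissue were read beside these values. In bulk samples fewer cells of a type and less RNA per cell cannot be told apart. The pars tuberalis, the part of the pituitary that covers the median eminence and has clock gene rhythms of its own, is marked by Tshb, Cga, Pitx1 and Lhx3. All 4 were measured, and their summed signal ran from 528 to 5602 in control chow, 1074 to 2003 in mutant chow, 115 to 1447 in control HFD and 873 to 1743 in mutant HFD. The sum was highest in control chow replicate 2, the library with the highest Per2. Over 12 libraries Per2 ran with the log2 of this sum (r = 0.57, rho = 0.68, and r = 0.68 without the 2 farthest libraries), and Cry2 ran opposite (r = -0.80, rho = -0.76, and -0.69). The part of these markers in the Per2 values was not tested.

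**Figure D4:**
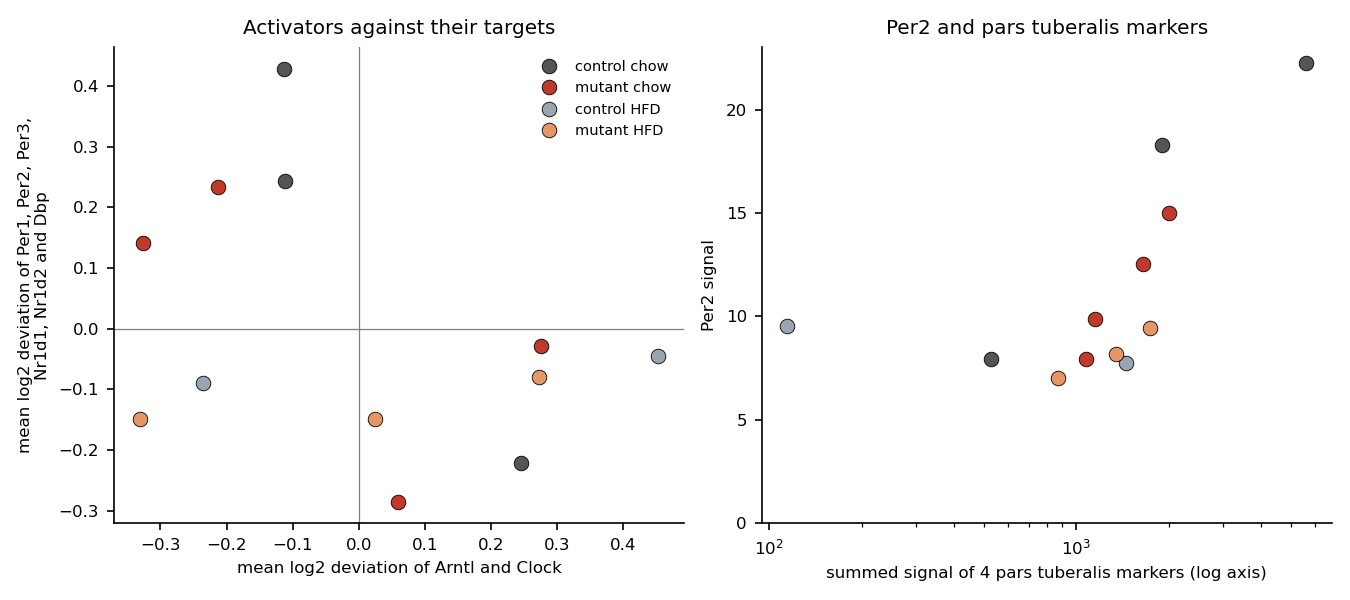
Left, mean log2 deviation of Per1, Per2, Per3, Nr1d1, Nr1d2 and Dbp (vertical) against that of Arntl and Clock (horizontal), with 1 point per library in the colour of its group. Right, Per2 signal against the summed signal of 4 pars tuberalis markers on a log axis, where control chow replicate 2 stands at 5602 and 22.3; libraries of every group are mixed on the left.

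The suprachiasmatic list (Vip, Prok2, Prokr2, Nms, Lhx1, Six6, Rgs16 and Avp) was dominated by Avp, which made up 79.9% to 97.0% of its summed signal by group and is also made in other hypothalamic neurons. Vip, a defining marker, was below 1 in all 5 control libraries, 0 to 5.85 in mutant chow and 0.316 to 1.49 in mutant HFD. The sum ran from 140 to 379 in control chow, 118 to 3100 in mutant chow, 258 to 281 in control HFD and 726 to 2604 in mutant HFD, so that the HFD groups did not overlap. Per1, the member without overlap on HFD, ran opposite to this sum over the 12 libraries (r = -0.65, rho = -0.78). Without Avp the sum was 45.2 to 63.3 in control HFD and 48.5 to 58.1 in mutant HFD. The part of these markers in the Per1 values was not tested.

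Lists of genes that other cues move were read in the same way. The 8 temperature-responsive genes, among them heat shock genes and the cold-inducible Cirbp and Rbm3, had a summed signal of 3311 to 3807 in control chow, 2981 to 3565 in mutant chow, 3325 to 3351 in control HFD and 3168 to 3417 in mutant HFD. Hspa8 and Hsp90aa1, chaperone genes of high level, made up 76.0% to 85.0% of this sum. The sum ran with Nr1d1 (r = 0.83, rho = 0.69), Per2 (r = 0.80, rho = 0.60) and Dbp (r = 0.76, rho = 0.80). These were the highest positive r of 70 correlations between a member and a list. The negative r of Cry2 with the pars tuberalis sum was of like size (-0.80). In this list 0 of 8 genes were called in any comparison (limma). An unadjusted p under 0.05 with a lower value was found for 4 of 8 in mutants on chow, against 1.75% of all genes, and for 4 of 8 in controls on HFD, against 2.1%, and these comparisons share the control chow libraries. In the libraries labelled mutant on HFD 1 of 8 was higher and 0 lower than in controls at this p, against 2.21% in either direction. The interaction was above 0 for 8 of 8 and had such a p for 2, against 3.44%. Averaged over the genotypes 2 of 8 were lower on HFD at this p, against 5.29% in either direction. Of 9 immediate early genes, which mark recent neuronal activity, and of 10 glucocorticoid-responsive genes, 0 were called in any comparison (limma), and at most 2 of either list had an unadjusted p under 0.05 in any 1 comparison. These were 2 of 9 immediate early genes, lower in mutants on chow (background 4.34%), and 2 of 10 glucocorticoid-responsive genes, lower on HFD averaged over genotypes (background 5.29%). Their summed signals overlapped between all groups compared, at 135 to 462 and 1075 to 2046 over the 12 libraries, and Per1 ran with the immediate early sum at r = 0.50, which was 0.21 without the 2 farthest libraries.

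Markers of other cell types were present in all groups. The summed microglia signal was 288 to 331 in mutant chow and 164 to 270 in the other 3 groups, without overlap. Of all single genes, 4.51% separated the genotypes on chow and 7.99% the diets in mutants. Of the 5 microglia genes, 0 were called in any comparison (limma). At unadjusted p under 0.05, 3 were higher in mutants on chow (background 4.34%) and 3 lower on HFD in mutants (background 5.37%). The oligodendrocyte sum ran from 1177 to 3599 in control chow and from 1743 to 5462 in mutant chow. Neuron sums ran from 1018 to 1708, astrocyte sums from 640 to 1255, endothelial sums from 59.6 to 216.7 and tanycyte sums from 144 to 375 over the 12 libraries. Of the members, Nr1d2 ran with the oligodendrocyte sum (r = 0.54, rho = 0.69) and Per3 opposite to the neuron sum (r = -0.61, rho = -0.72). The ARC neuron sum ran from 1990 to 7934.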

How the data were processed

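Total RNA of microdissected ARC was sequenced in 12 libraries. The authors used Kallisto (gene mode, mm10 transcripts) for quantification and Sleuth for analysis, per the methods and the labels. The deposited values are an abundance signal, taken here as normalised for length and depth. Column totals differ, so they are no plain TPM, and their scaling, read depth, software versions, annotation release and gene filter are not given in the sources used here. Counting error and detection floors could not be given. Symbols and positions came from GENCODE M21 (GRCm38), and 16633 of 16640 genes matched.

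Values were analysed as log2(signal + 1) with a mean-variance trend in limma 3.58.1 (R 4.3.3). The fit used 1 mean per group over all 12 libraries, and genes of at least 1 in at least 2 libraries. Tests were two-sided with Benjamini-Hochberg adjustment at 0.05. The fit was tested on simulated data. No pair of libraries held identical values. The members and all gene lists were chosen with earlier results of these data known. All members were named. Some listed genes that are no members are not reported here, and list counts and sums leave them out. Other clock genes were named where the unadjusted p-value was under 0.05 in a diet comparison. Those named because groups did not overlap were chosen after their values were seen. Correlations used log2 values, and a list entered as log2 of its summed signal. Alternatives were quantile normalisation, rescaling to a sum of 1000000, median-ratio rescaling, a pseudocount of 0.1, no filter, a mean of at least 5, no trend, array weights, only the groups compared, leaving out each library, and, added after seeing the data, a replicate block.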

Additional observations from a re-analysis of the deposited data

Results flagged for a closer look

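Of the 4 groups only mutant chow, with 4 libraries, was large enough to look for a library standing apart from the rest. By Dixon's ratio of the gap to the range, 2 of 33 clock genes had such a library, both among the 10 members. Chance gives about 1 in 20 per gene tested, so 2 of 33 is near that rate. The share over all genes was not computed. Cry1 was 9.90 in mutant chow replicate 2 against 13.7 to 14.01 in the other 3 libraries, a gap of 0.914 of the range. Nr1d1 was 94.7 in mutant chow replicate 3 against 74.1 to 77.1, a gap of 0.851 of the range. Mutant chow replicate 3 is also the library with the most genes listed at 0.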

How the results depend on the processing

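The count of clock genes called was 0 in 130 of 130 alternative fits over the 6 comparisons, and the smallest adjusted p of any member in them was 0.412 (limma). Of 495 values followed for single genes, 486 kept their direction and their side of the threshold and 9 changed sign, 8 of them when a single library was left out and all 9 in the diet difference averaged over genotypes. Leaving out 1 library at a time, that difference ran from -0.34 to 0.016 for Per3, from -0.15 to 0.34 for Clock, from -0.055 to 0.15 for Arntl and from -0.016 to 0.20 for Dbp. For Per2 it ran from -0.77 to -0.42, and for Npas2 on HFD in mutants the difference ran from -1.74 to -1.14. Fits that left control HFD with 1 library assume that it varies like the other groups. Rescaling every column to the same sum moved the median of all genes to 0.12 for diet in controls and to -0.18 for the interaction, from -0.01 and -0.03, so differences of that size have no direction there. The column names hold a running number within each group, which nothing ties to a shared animal, litter or day. Deviations from the group means correlated above 0.1 in 3 of 15 pairs of libraries with the same number in different groups (-0.18 to 0.31). The 38 pairs with other numbers ran from -0.31 to 0.31. After removal of their mean, the 2 control HFD libraries deviate in exactly opposite ways, so these sets of pairs are not independent. Of 12 libraries, 6 were closest to a library of their own number, and no chance rate was computed for this count. A pairing was thus not settled, and the main fit did not use the number. With it as a replicate block, added after seeing the data, 0 of 10 members were called in each of the 6 comparisons, and the averaged diet difference of Arntl was -0.094. Group sizes of 2 to 4 and unknown depth limit what could be detected.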
